A study of Homo sapiens with 36 samples.

Results

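The 51 genes described here encode axon guidance ligands and receptors: 14 Eph receptors, 8 ephrins, 10 semaphorins, 9 plexins and neuropilins, 3 slits with 3 ROBO receptors, and netrin 1 with 3 of its receptors. They were chosen by gene symbol, and each of the 51 was found among the 58721 genes of the deposited count matrix. Of these, 50 passed the filter on low counts and were among the 19772 genes tested. The exception was EPHA5, which stayed at or under 0.777 CPM (read counts scaled to the size of each library) in every library.

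Axon guidance molecules steer growing axons and migrating cells by attraction and repulsion at the cell surface. Ephrins are membrane-bound ligands of the Eph receptor tyrosine kinases, and both partners can signal into their own cell. Semaphorins are secreted or membrane-bound ligands of plexins, and most secreted class 3 semaphorins need a neuropilin as co-receptor. Slits are secreted ligands of ROBO receptors, and netrin 1 attracts through DCC and repels through UNC5 receptors. Outside the nervous system the same families act in the early mesoderm and heart, for example in the movement of cardiac precursors, in the outflow tract and in vessel growth.

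RNA was sequenced from wild-type H1 cells, a human embryonic stem cell line, and from H1 cells labelled as a knockout of PERK, the endoplasmic reticulum stress kinase encoded by EIF2AK3. Each genotype was sampled at days 0, 1, 2, 3, 5 and 10 of differentiation towards cardiomyocytes, with 3 libraries in each of the 12 groups and 36 in all. Both genotypes received CHIR99021, a GSK3 inhibitor that activates WNT signalling, from day 0 to 1, and IWP2, an inhibitor of WNT secretion, from day 2 to 5. Heparin was given from day 1 to 7 and insulin from day 7, and the day 0 cells were undifferentiated. How PERK was targeted, whether the knockout line is a single clone, and whether the replicates are separate cultures is not given in the labels, so the p-values measure only the spread between these libraries. The protocol text names collection at days 0, 2 and 6, whereas the sample labels used here give the days listed above.

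Library totals ranged from 14002118 to 25860469 reads. EIF2AK3 itself did not pass the test at any day, with log2 fold changes between -0.37 and 0.45, so its RNA level does not check the labels. The knockout day 0 replicate 2 library stood apart: its mean transcript length weighted by counts was 2028 nt, against 2838 and 2783 nt in the other 2 libraries of that group. Wild-type day 2 replicate 3 also differed more from its 2 group partners than they differed from each other. The chi-square per degree of freedom was 80.1 and 74.9 against 4.22. Other wild-type groups were spread too: on that scale replicates 1 and 3 differed by 95.7 at day 3 and by 60.3 at day 10. Summed markers of cardiac mesoderm reached 5250 to 6710 CPM in wild type at day 2 and 428 to 518 CPM in the knockout. At day 10 the 8 cardiomyocyte markers summed to 13000 to 17300 CPM in wild type and to 109 to 413 CPM in the knockout. Pluripotency markers at day 3 summed to 1350 to 1990 CPM in wild type and 7800 to 8530 CPM in the knockout. The 10 markers of neuroectoderm and neurons summed at day 10 to 46.3 to 48.5 CPM in wild type, with SOX1 at 0, and to 780 to 937 CPM in the knockout. The samples are bulk RNA, so fewer cells of a type and less RNA per cell cannot be told apart, and the part of these marker differences in the values below was not tested.

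From day 2 on most guidance genes differed between the genotypes, more often downwards than upwards. At day 0, 8 of the 50 tested members were called, where 21.1% of all tested genes were (12.5% higher and 8.64% lower). A call is an adjusted p under 0.05 in edgeR's quasi-likelihood test, Benjamini-Hochberg adjusted over all genes. All 8 were lower in the knockout: EPHA2, EPHA8, EFNA2, SEMA6A, PLXNA3, SLIT3, ROBO3 and UNC5B. With only the day 0 libraries in the fit no member was called by edgeR (9 at an unadjusted p under 0.05), and over all genes there were 192 calls in place of 4177, 34.9% of them higher in place of 59.1%. The count of 8 fell to 4 without wild-type day 0 replicate 2 and to 4 without wild-type day 0 replicate 3. Without the pair of libraries that stand apart it was 11, of which 3 were higher and 8 lower, and 6 of the 8 main calls remained.

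Day 1 brought 9 members higher and 12 lower, and over all genes 15.8% were called (8.11% higher, 7.72% lower). With only the day 1 libraries in the fit, 33 members in place of 21 and 7428 genes in place of 3129 were called. Day 2 followed with 12 higher and 27 lower (42.6% of all genes, 20.9% higher and 21.7% lower), and day 3 with 11 higher and 29 lower (45.1%, 21.9% and 23.2%). For day 5 the counts were 13 and 25 (59%, 28.6% and 30.5%), and for day 10 they were 18 and 24 (67.3%, 33.3% and 34%). The members' share called was 42.0%, 78.0%, 80.0%, 76.0% and 84.0% at these 5 days, above the share over all genes at each, with a narrower gap at days 5 and 10. At day 3 the median log2 fold change was -0.88 over the members and -0.03 over all tested genes. By day 10 these medians were -0.16 and 0.

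**Figure D1:**
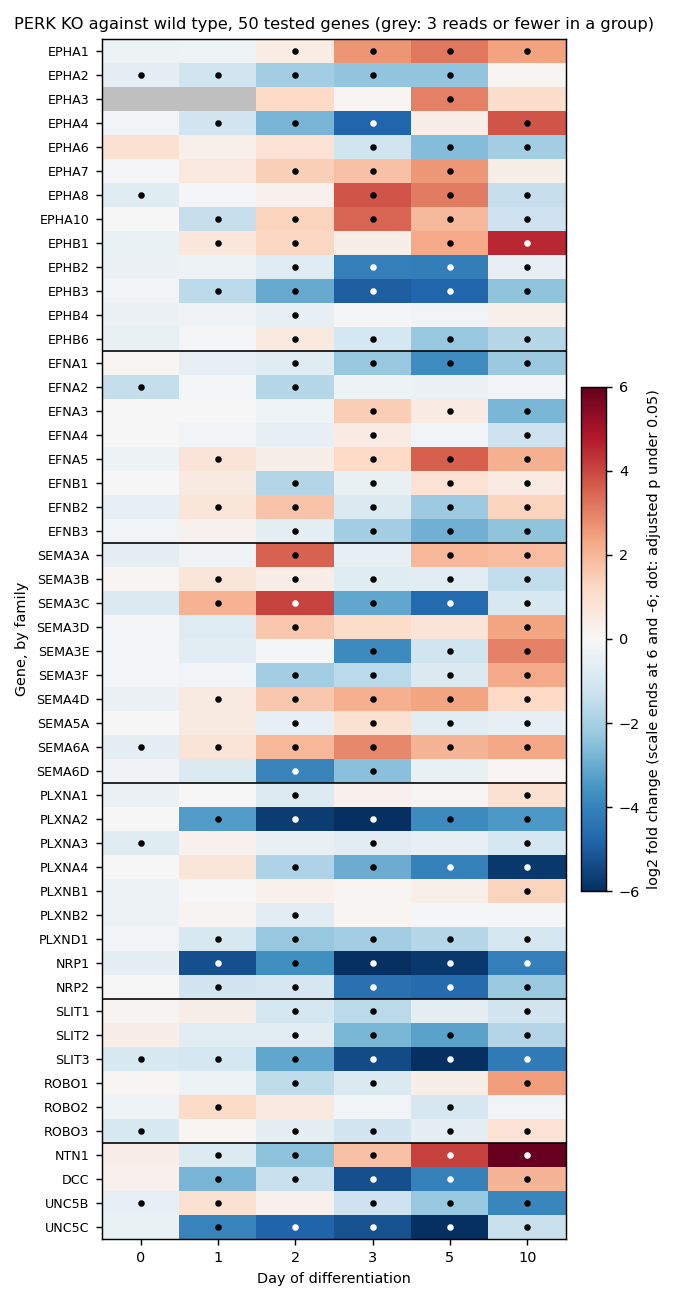
Log2 fold change of the knockout against wild type (colour, scale ending at 6 and -6) for the 50 tested genes in rows, by family, and the 6 days in columns. A dot marks an adjusted p under 0.05 and grey marks EPHA3 at days 0 and 1, where a group held 3 reads or fewer. The column for day 0 holds 8 dots and that for day 10 holds 42, and the deepest blue lies at PLXNA2, NRP1, SLIT3 and UNC5C.

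On the lower side, 7 members were called at every day from 1 to 10: EPHB3, PLXNA2, PLXND1, NRP1, NRP2, SLIT3 and UNC5C. Over all tested genes 1.44% showed that pattern. On the higher side 2 members did so, SEMA4D and SEMA6A, against 1.28% of all genes. With an offset for effective transcript length the day 1 calls of EPHB3 (adjusted p = 0.0894), SLIT3 (0.299), SEMA6A (0.056) and SEMA4D (0.0827) were lost, and that of SEMA4D also with no filter on low counts (0.0581). Over days 1 to 10, 20 members were called only lower, 10 only higher and 20 in both directions at different days, and over all genes these shares were 34.7%, 33.8% and 19.9%. A switch from lower at day 3 to higher at day 10 was called for 8 members, and for 4% of all genes: EPHA4, EFNB1, EFNB2, SEMA3E, SEMA3F, ROBO1, ROBO3 and DCC. The opposite switch was called for 5 (5.37% of all genes), EPHA8, EPHA10, EFNA3, EFNA4 and SEMA5A.

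The Eph receptors split by gene. EPHA1 fell less in the knockout than in wild type, EPHB3 stayed below its wild-type level from day 1, and EPHA4 was lower early and higher late. EPHB2 was lower from day 2 to day 5 and close to wild type at day 10, at 35.6 against 38.86 TPM. At day 3, 4 Eph receptors were higher and 6 lower of 13 tested, and at day 10, 3 were higher and 6 lower. Of all genes 21.9% were higher and 23.2% lower at day 3, and 33.3% and 34% at day 10. In summed TPM, a level per transcript length, the 5 EphB receptors reached 449.7 ± 48.3 (SD, n = 3) in wild type at day 5 and 117.7 ± 3.7 (SD, n = 3) in the knockout. The 9 EphA receptors summed to more in the knockout at day 10. The sums were 65.43 ± 9.69 TPM in wild type and 204.7 ± 14.8 TPM in the knockout (SD, n = 3 each). EPHA4 led that knockout sum at 111.9 TPM. Among the EphA genes, EPHA1 and EPHA4 were called higher at that day, and EPHA6, EPHA8 and EPHA10 lower. At day 3 the EphA sum was 134.4 TPM in wild type and 73.29 TPM in the knockout.

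EPHA1, on chromosome 7 (chr7:143390289-143408892, minus strand, GRCh38), encodes an ephrin-A receptor. It was highest at day 0 in both genotypes, at 272, 253 and 248 CPM in the 3 wild-type libraries and 196, 206 and 230 CPM in the knockout. By day 5 wild type had fallen to 12.2, 11.4 and 9.59 CPM, while the knockout held 98.9, 98.3 and 104 CPM. The groups did not overlap at day 5, and the log2 fold change was 3.19 ± 0.14 (SE; adjusted p = 3.93e-18). Its RefSeq promoter (GRCh38.p14, chr7:143408807-143409106, minus strand) is shown because EPHA1 has the smallest adjusted p among the Eph receptors. It runs from 250 bases before the start of transcription to 50 after it, with CG dinucleotides in capitals, as do the other promoters below.
EPHA1: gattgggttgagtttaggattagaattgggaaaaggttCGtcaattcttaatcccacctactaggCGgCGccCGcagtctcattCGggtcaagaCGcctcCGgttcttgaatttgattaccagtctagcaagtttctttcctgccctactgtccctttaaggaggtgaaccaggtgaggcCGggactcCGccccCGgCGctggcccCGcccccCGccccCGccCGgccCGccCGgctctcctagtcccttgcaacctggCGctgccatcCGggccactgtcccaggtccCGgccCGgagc

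EPHB2, an ephrin-B receptor on chromosome 1 (chr1:22710839-22921500, plus strand), rose in wild type between days 2 and 5. At day 5 its wild-type libraries held 999, 893 and 766 CPM and the knockout libraries 50.9, 52.7 and 47.0 CPM. Every wild-type library was far above every knockout library, with a log2 fold change of -4.14 ± 0.19 (adjusted p = 1.16e-17). By day 10 the wild-type values were 102, 116 and 170 CPM against 93.1, 99.8 and 84.2 CPM, a log2 fold change of -0.48 (adjusted p = 0.0125). That day 10 call was lost without wild-type day 10 replicate 3 (adjusted p = 0.221) and without knockout day 10 replicate 3 (adjusted p = 0.0567). EPHB3 (chr3:184561784-184582409, plus strand), a second ephrin-B receptor, differed at all 5 later days. At day 3 it was at 142, 209 and 212 CPM in wild type and 6.83, 6.03 and 5.55 CPM in the knockout, with no overlap and a log2 fold change of -4.93 ± 0.27 (adjusted p = 8.19e-16).

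EPHA4 (chr2:221418027-221574202, minus strand) binds both classes of ephrin and is widely used in axon repulsion. At day 3 the wild-type libraries held 258, 259 and 229 CPM and the knockout libraries 12.1, 7.94 and 7.62 CPM (log2 fold change -4.75 ± 0.22, adjusted p = 1.22e-17). At day 5 the groups overlapped, at 81.4, 113 and 84.2 CPM against 139, 113 and 110 CPM, and the difference was not called (log2 fold change 0.38, adjusted p = 0.0785). It was called higher with only the day 5 libraries in the fit (0.40, adjusted p = 0.00621), without the pair of libraries that stand apart (0.39, 0.0184) and without wild-type day 5 replicate 2 (0.54, 0.0252). At day 10 the order was reversed, with 31.2, 23.3 and 23.4 CPM in wild type and 349, 410 and 321 CPM in the knockout (log2 fold change 3.79 ± 0.20, adjusted p = 5e-16). Its knockout level rose from day 3 to day 10 while its wild-type level fell, and the knockout day 10 libraries were the highest of all 36.

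Other Eph receptors followed either course. EPHA2, a receptor of ephrin-A1, was lower at each day from 0 to 5, with a log2 fold change of -2.38 ± 0.17 at day 5 (adjusted p = 2.4e-13), and the call was absent at day 10 (0.12, adjusted p = 0.5). EPHB6, which lacks kinase activity, was higher at day 2 (0.58, adjusted p = 0.0111) and lower from day 3, at -2.27 ± 0.19 on day 5 (adjusted p = 7.45e-12). EPHB1 differed most at day 10, when wild type held 0.672, 0.337 and 0.335 CPM and the knockout 11.1, 10.9 and 10.3 CPM (log2 fold change 4.51 ± 0.26, adjusted p = 3.11e-15). EPHB4, a receptor of ephrin-B2 known from vessels, was steady by comparison: its libraries lay between 119 and 314 CPM and only day 2 was called (-0.48, adjusted p = 0.00662).

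Low-level EphA genes added calls at small absolute levels. EPHA7 was higher at days 2, 3 and 5, with 32.7, 28.0 and 33.3 CPM in the knockout against 4.50, 4.42 and 6.65 CPM at day 5. EPHA8 never passed 7.15 CPM in any library but was higher at day 3 (3.76 ± 0.33, adjusted p = 3.41e-11) and lower at day 10 (-1.37, adjusted p = 3.05e-05). EPHA10 showed the same pair of calls, 3.48 at day 3 and -1.24 at day 10. EPHA6 was lower from day 3 to day 10 at no more than 6.61 CPM. EPHA3 had 0 reads in the 3 wild-type day 0 libraries together and was called only at day 5 (3.01 ± 0.73, adjusted p = 0.000793), at no more than 1.62 CPM at that day.

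Ephrins, the ligands, also parted by gene, with 3 higher and 4 lower of 8 at day 3 and the same numbers at day 10. The shares of all genes at these days were 21.9% higher and 23.2% lower, and 33.3% and 34%. Ephrin-B genes summed to 144.4 ± 5.36 TPM in wild type at day 5 and 47.05 ± 1.14 TPM in the knockout (SD, n = 3 each). The day 10 ephrin-B sums were close, 208.1 ± 31.0 and 198.5 ± 18.9 TPM, but different genes led them: EFNB3 in wild type and EFNB1 in the knockout. Ephrin-A genes summed at day 10 to 190.2 ± 23.6 TPM in wild type and 83.7 ± 10.7 TPM in the knockout.

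EFNB3 (chr17:7705202-7711378, plus strand), a transmembrane ephrin known from the midline of the nervous system, rose in wild type from day 3. At day 5 it was at 291, 265 and 262 CPM in wild type and 37.1, 35.7 and 36.5 CPM in the knockout (log2 fold change -2.90 ± 0.14, adjusted p = 4.61e-17). EFNA1 (chr1:155127460-155134857, plus strand), a lipid-anchored ephrin, was at 71.7, 58.3 and 69.1 CPM against 4.14, 5.30 and 5.31 CPM at day 5 (-3.75 ± 0.27, adjusted p = 3.46e-13). Neither gene's groups overlapped at that day. The EFNA1 call at day 2 (-0.74, adjusted p = 0.0291) was lost without wild-type day 2 replicate 3 (adjusted p = 0.12), knockout day 2 replicate 1 (0.0676) or knockout day 2 replicate 2 (0.101).

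EFNA5 (chr5:107376889-107670895, minus strand), best known for retinotopic maps, took the opposite course. At day 5 the wild-type libraries held 2.09, 3.70 and 3.57 CPM and the knockout libraries 37.6, 34.9 and 39.4 CPM, a log2 fold change of 3.57 ± 0.17 (adjusted p = 2.46e-17). It stayed higher at day 10, at 35.97, 34.7 and 36.3 CPM against 7.84, 9.04 and 7.77 CPM. EFNB2 changed sides more than once and EFNB1 once. EFNB2, the ligand of EPHB4 and a mark of arterial endothelium, was higher at days 1 and 2 (1.70 ± 0.18 at day 2), lower at days 3 and 5 (-2.17 ± 0.18 at day 5) and higher again at day 10 (1.32 ± 0.17). EFNB1 was called lower at day 2 (-1.77) and day 3 (-0.47), and later higher, by 0.86 at day 5 and 0.47 at day 10. For EFNB2, 26.2% of the exon bases also lie in the antisense gene AL138689.2, and with no strand setting stated for the counting its values are uncertain.

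EFNA4, EFNA3 and EFNA1 lie side by side on chromosome 1, with gaps of 9319 and 39922 bp, and took different courses. EFNA3 (chr1:155078872-155087538, plus strand) was higher in the knockout at day 3, at 29.9, 31.9 and 34.2 CPM against 7.52, 12.7 and 13.9 CPM. At day 10 it was lower, at 9.80, 12.4 and 9.61 CPM against 59.8, 60.4 and 90.2 CPM (log2 fold change -2.73 ± 0.19, adjusted p = 1.44e-13). Its smaller day 5 difference (0.48, adjusted p = 0.0257) was lost without wild-type day 5 replicate 2 (0.0994), knockout day 5 replicate 1 (0.0568) or knockout day 5 replicate 3 (0.0599). EFNA4 followed the same direction with smaller changes, 0.51 at day 3 and -1.24 at day 10. EFNA3 and EFNA4 share 44.7% and 15.0% of their exon bases with the same-strand gene AL691442.1, so their split of reads is uncertain. EFNA2 was lower at days 0 and 2 only, with log2 fold changes of -1.43 and -1.72.

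**Figure D2:**
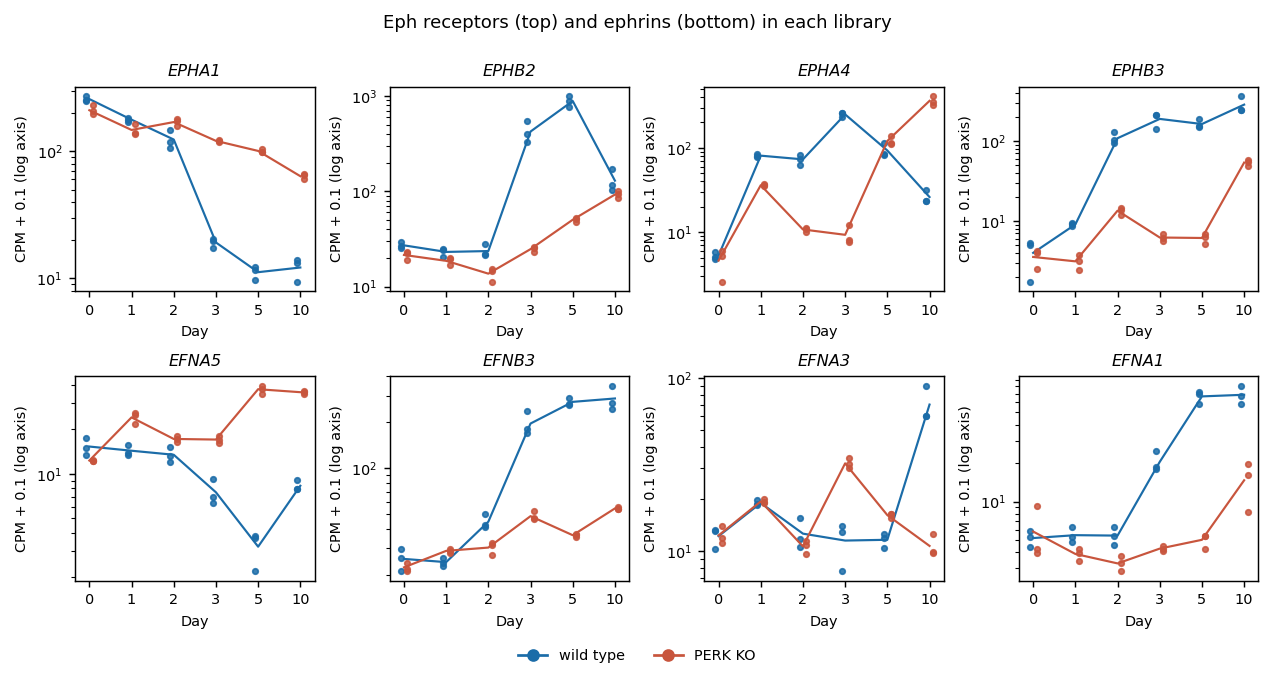
CPM plus 0.1 on a log axis against day for 4 Eph receptors (top) and 4 ephrins (bottom), with 1 point per library and lines through the means of 3 libraries. EPHA1 falls less in the knockout than in wild type, and the EPHA4 lines cross between days 3 and 10. At day 5 EPHB2 is 766 to 999 CPM in wild type and 47.0 to 52.7 CPM in the knockout.

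Among the semaphorins, SEMA6A and SEMA4D were higher in the knockout at every day from 1 to 10. Of the secreted class 3 genes, SEMA3B, SEMA3C, SEMA3E and SEMA3F were called in both directions at different days, and SEMA3A and SEMA3D only higher. At day 2, 6 of the 10 semaphorins were higher and 3 lower. At day 3 these counts were 3 and 5, and at day 10 they were 6 and 3. Over all genes the higher and lower shares were 20.9% and 21.7% at day 2. These shares were 21.9% and 23.2% at day 3, and 33.3% and 34% at day 10. The 10 genes summed to 173.8 ± 35.9 TPM in wild type at day 3 and 289.2 ± 6.97 TPM in the knockout (SD, n = 3 each). SEMA6A made up 76.4% of that knockout sum.

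SEMA6A (chr5:116443616-116574934, minus strand) is a transmembrane ligand of plexin-A2 and plexin-A4. Its day 3 libraries held 123, 112 and 124 CPM in wild type and 852, 905 and 864 CPM in the knockout (log2 fold change 2.87 ± 0.23, adjusted p = 3.87e-12). In wild type it fell from 591, 747 and 772 CPM at day 0 to 99.3, 68.3 and 95.1 CPM at day 10. The knockout held 605, 201 and 603 CPM at day 0, where the low value belongs to replicate 2, and 423, 470 and 423 CPM at day 10. The day 0 call (-0.58, adjusted p = 0.0486) was lost without knockout day 0 replicate 2 (-0.22, adjusted p = 0.191), wild-type day 0 replicate 2 (0.136) or wild-type day 0 replicate 3 (0.154).

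SEMA4D (chr9:89360787-89498130, minus strand), a transmembrane ligand of plexin-B1, behaved alike. At day 5 it was at 15.6, 18.1 and 15.4 CPM in wild type and 87.7, 82.0 and 83.8 CPM in the knockout, without overlap (log2 fold change 2.37 ± 0.17, adjusted p = 4.2e-13). Its day 1 call (0.53, adjusted p = 0.0219) was lost without wild-type day 1 replicate 1 (0.09) or 2 (0.0778) and without knockout day 1 replicate 1 (0.0691) or 2 (0.0774). Its RefSeq promoter (GRCh38.p14, chr9:89495607-89495906, minus strand) is shown as that of a member higher at all 5 later days.
SEMA4D: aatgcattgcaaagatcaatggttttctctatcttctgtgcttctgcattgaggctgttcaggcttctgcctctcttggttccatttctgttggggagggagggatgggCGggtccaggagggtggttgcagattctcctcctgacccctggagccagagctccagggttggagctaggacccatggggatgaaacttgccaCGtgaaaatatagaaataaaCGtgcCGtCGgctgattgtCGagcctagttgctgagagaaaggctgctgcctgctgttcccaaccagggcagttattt

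SEMA6D (chr15:47184101-47774223, plus strand), a transmembrane semaphorin that acts through plexin-A1 in the developing heart, came on late in the knockout. At day 2 the wild-type libraries held 144, 138 and 58.0 CPM, with replicate 3 the low value, and the knockout libraries 6.58, 6.92 and 7.61 CPM. The log2 fold change was -4.01 ± 0.30 (adjusted p = 2.47e-12), and -4.31 without the pair of libraries that stand apart. By day 5 the values were 68.6, 81.8 and 76.6 CPM against 57.6, 56.0 and 53.7 CPM, which was not called (-0.44, adjusted p = 0.15). SEMA3F (chr3:50155045-50189075, plus strand), a secreted ligand of neuropilin-2, was at 140, 167 and 222 CPM against 35.4, 50.3 and 40.8 CPM at day 2 (-2.07 ± 0.19, adjusted p = 1.4e-10). At day 10 it was at 31.0, 27.2 and 49.6 CPM in wild type and 160, 196 and 162 CPM in the knockout (2.27 ± 0.19, adjusted p = 8.45e-12). The order of the genotypes was thus opposite at these days, with no overlap at either.

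The remaining class 3 semaphorins were of lower level. SEMA3C, needed for outflow tract septation in the heart, was at 0.502, 0.390 and 0.208 CPM in wild type and 8.01, 4.72 and 5.68 CPM in the knockout at day 2. At day 5 it was at 22.7, 20.7 and 27.9 CPM against 0.977, 1.03 and 0.766 CPM (log2 fold change -4.68 ± 0.41, adjusted p = 2.73e-11). SEMA3E, a ligand that binds plexin-D1 without a neuropilin, was lower at day 3 (-3.80 ± 0.37) and higher at day 10 (3.03 ± 0.34). SEMA3A, the classic repellent that signals through neuropilin-1, was higher at days 2, 5 and 10, by 3.53, 1.99 and 1.86 on the log2 scale. SEMA3B was higher at days 1 and 2 and lower from day 3 (-1.47 at day 10). For SEMA3D the knockout day 10 libraries spread from 5.08 to 21.7 CPM against 2.40 to 3.09 CPM in wild type (2.38, adjusted p = 8.5e-06). SEMA5A had the smallest range of the semaphorins, with log2 fold changes from -0.64 to 0.92.

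The neuropilins, co-receptors of class 3 semaphorins and of VEGF, hardly came on in the knockout. Their summed level was 596.5 ± 50.8 TPM in wild type at day 5 and 26.12 ± 1.43 TPM in the knockout (SD, n = 3 each). NRP1 (chr10:33177492-33336262, minus strand) was at 104, 69.3 and 86.8 CPM in wild type at day 3 and 1.08, 0.798 and 1.18 CPM in the knockout. The log2 fold change was -6.41 ± 0.27 (adjusted p = 1.95e-18), and a difference was already called at day 1 (-5.27 ± 0.37, adjusted p = 3.95e-12). NRP1 later rose in the knockout, to 12.1, 5.85 and 11.8 CPM at day 10, still below the 181, 155 and 177 CPM of wild type.

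NRP2 (chr2:205681990-205798133, plus strand) had the highest wild-type CPM of the 51 genes. Its day 5 libraries held 1719, 1687 and 1708 CPM in wild type and 71.1, 65.8 and 73.6 CPM in the knockout (log2 fold change -4.60 ± 0.29, adjusted p = 1.45e-14). The 3 libraries of each group lay close together and far from the other group. The day 10 knockout libraries spread more, at 55.3, 19.1 and 77.2 CPM against 226, 258 and 217 CPM, with replicate 2 the lowest (-2.21 ± 0.26, adjusted p = 1.38e-08).

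Among the 7 plexins, the signalling receptors, PLXNA2 differed most, and PLXNB1 and PLXNB2 were called at 1 day each. Plexins summed to 572.6 ± 5.71 TPM in wild type at day 2 and 194.7 ± 9.4 TPM in the knockout (SD, n = 3 each), and PLXNA2 led in wild type while PLXNB1 led in the knockout. Of the 9 plexins and neuropilins, 7 were lower at day 2, 6 at day 3 and 5 at day 5, and the others were not called at those days. Over all genes 21.7%, 23.2% and 30.5% were lower at these days. At day 10, 6 were lower and 2 higher (34% and 33.3% of all genes), the higher ones being PLXNA1 (0.92) and PLXNB1 (1.32).

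PLXNA2 (chr1:208022242-208244320, minus strand), a receptor of SEMA6A that class 3 semaphorins reach with neuropilins, rose in wild type from 7.24, 6.60 and 5.68 CPM at day 0 to 1132, 1140 and 1408 CPM at day 2. The knockout held 20.8, 28.5 and 21.8 CPM at day 2, a log2 fold change of -5.69 ± 0.27 (adjusted p = 8.89e-17). At day 3 the values were 489, 745 and 575 CPM against 11.1, 9.004 and 7.29 CPM (-6.04 ± 0.28, adjusted p = 1.58e-17). No knockout library at any day came above 32.0 CPM. The RefSeq promoter (GRCh38.p14, chr1:208244335-208244634, minus strand) is shown for comparison with that of SEMA4D.
PLXNA2: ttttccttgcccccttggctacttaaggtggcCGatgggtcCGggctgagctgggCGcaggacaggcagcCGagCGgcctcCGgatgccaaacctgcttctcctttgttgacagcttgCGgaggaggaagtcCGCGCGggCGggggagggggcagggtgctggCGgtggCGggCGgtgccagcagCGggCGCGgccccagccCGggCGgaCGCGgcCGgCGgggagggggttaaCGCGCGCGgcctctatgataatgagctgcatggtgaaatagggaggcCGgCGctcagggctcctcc

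PLXNA4 (chr7:132123332-132648688, minus strand), a receptor of SEMA6A and SEMA3A, drew apart with time. At day 10 its wild-type libraries held 48.0, 26.6 and 66.5 CPM and the knockout libraries 0.629, 0.466 and 1.34 CPM (log2 fold change -5.81 ± 0.34, adjusted p = 3.33e-15). PLXND1, the receptor of SEMA3E with roles in vessel and outflow tract patterning, was lower at all 5 later days, most at day 2 with 334, 387 and 464 CPM against 72.5, 85.8 and 84.5 CPM (-2.29 ± 0.18). PLXNA3 was lower at days 0, 3 and 10, with log2 fold changes of -0.73, -0.61 and -1.04. PLXNB2 was called only at day 2 (-0.70), and PLXNB1, the receptor of SEMA4D, only at day 10.

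**Figure D3:**
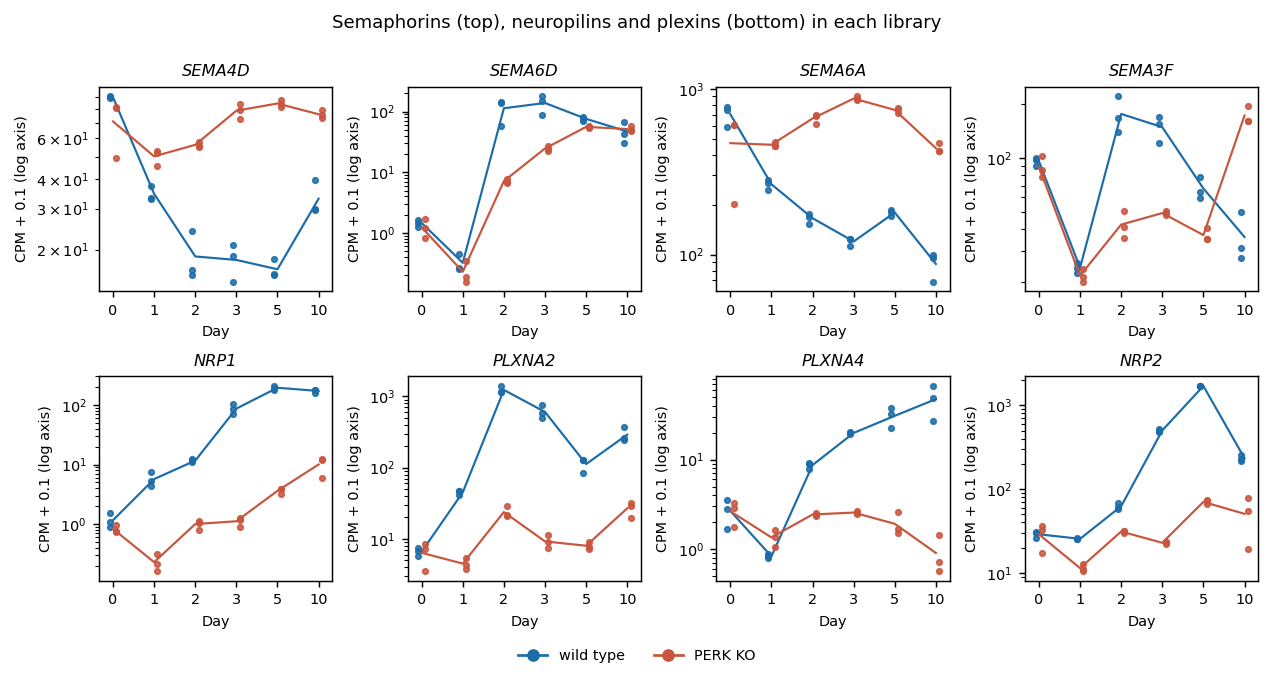
CPM plus 0.1 on a log axis against day for 4 semaphorins (top) and 4 neuropilin and plexin genes (bottom), with 1 point per library and lines through the means of 3 libraries. SEMA4D and SEMA6A lie higher in the knockout from day 1, whereas NRP1, NRP2 and PLXNA2 rise in wild type and stay low in the knockout, NRP2 reaching 1687 to 1719 CPM in wild type at day 5.

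The slits were lower in the knockout, and SLIT3 by more than any other member. Slits summed at day 5 to 78.65 ± 1.73 TPM in wild type and 2.993 ± 0.511 TPM in the knockout (SD, n = 3 each). Of the 6 slit and ROBO genes, 5 were lower at days 2 and 3 and 4 at day 5. The lower shares of all genes were 21.7%, 23.2% and 30.5% at these 3 days. At day 10, 3 were lower (34% of all genes), all slits, and 2 higher (33.3%), ROBO1 and ROBO3.

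SLIT3 (chr5:168661733-169301129, minus strand), a slit also known from heart and vessel development, rose in wild type to 457, 371 and 393 CPM at day 5. The knockout libraries held 1.78, 2.05 and 2.20 CPM at that day, a log2 fold change of -7.65 ± 0.23 (adjusted p = 2.26e-21), the smallest adjusted p of any member in the knockout against wild-type comparisons. At day 10 the knockout had risen to 22.1, 14.5 and 21.0 CPM, with wild type at 321, 298 and 445 CPM (-4.21 ± 0.19). The promoter (RefSeq, GRCh38.p14, chr5:169301090-169301389, minus strand) is given because of this difference.
SLIT3: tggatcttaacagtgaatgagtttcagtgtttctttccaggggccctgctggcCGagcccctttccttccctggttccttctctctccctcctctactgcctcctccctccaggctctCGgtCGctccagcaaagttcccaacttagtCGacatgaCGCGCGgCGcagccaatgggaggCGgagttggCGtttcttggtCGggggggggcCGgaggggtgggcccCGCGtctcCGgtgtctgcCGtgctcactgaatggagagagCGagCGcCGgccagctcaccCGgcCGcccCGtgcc

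SLIT2 (chr4:20253260-20620561, plus strand) was expressed by both genotypes at day 2, at 166, 159 and 135 CPM in wild type and 85.3, 101 and 106 CPM in the knockout. It then fell in both genotypes, and further in the knockout. At day 5 the libraries held 45.5, 48.8 and 64.8 CPM in wild type and 5.63, 5.35 and 6.03 CPM in the knockout (log2 fold change -3.22 ± 0.29, adjusted p = 4.78e-11). The day 2 call (-0.65, adjusted p = 0.0384) was lost on leaving out any 1 of the 3 knockout day 2 libraries (adjusted p = 0.133, 0.068 and 0.0559) or wild-type day 2 replicate 1 (0.0919) or 2 (0.0765). At day 0 knockout replicate 2 held 13.0 CPM against 44.7 and 44.3 CPM, and without it SLIT2 was higher in the knockout (0.79, adjusted p = 0.00419). SLIT1 stayed at or under 11.3 CPM and was lower at days 2, 3 and 10 (-1.62 at day 3).

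ROBO1 (chr3:78597240-79767815, minus strand), the leading ROBO gene by TPM in both genotypes from day 1 on, crossed over. At day 2 it was at 558, 538 and 274 CPM in wild type, replicate 3 being low, and at 151, 165 and 165 CPM in the knockout (log2 fold change -1.51 ± 0.30, adjusted p = 0.000127; -1.77 without the libraries that stand apart). The day 3 call (-0.87, adjusted p = 0.016) was lost without wild-type day 3 replicate 1 (0.0862) or 2 (0.0553) or knockout day 3 replicate 3 (0.059). Its day 10 values were 84.4, 51.4 and 40.1 CPM in wild type and 313, 376 and 312 CPM in the knockout (2.51 ± 0.31, adjusted p = 3e-08). ROBO3 (chr11:124865386-124881470, plus strand), a receptor that counteracts slit repulsion in commissural axons, made the same crossing on a smaller scale. Its day 3 libraries held 25.0, 27.8 and 26.6 CPM against 11.7, 11.9 and 12.1 CPM (-1.16 ± 0.13, adjusted p = 9.89e-09), and its day 10 libraries 9.10, 8.50 and 10.17 CPM against 16.5, 18.4 and 15.4 CPM. ROBO2 was higher at day 1 (1.14) and lower at day 5 (-1.0035), at no more than 27.4 CPM.

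At days 5 and 10 NTN1 was higher and UNC5B and UNC5C lower in the knockout. NTN1 (chr17:9021542-9244000, plus strand), the secreted ligand, peaked in wild type at day 2 with 80.3, 80.9 and 109 CPM, when the knockout held 13.9, 19.6 and 15.5 CPM (log2 fold change -2.46 ± 0.21, adjusted p = 3.59e-11). By day 10 wild type had lost it, at 0.134, 0.270 and 0.335 CPM, whereas the knockout had 42.6, 50.98 and 40.7 CPM. That difference of 7.52 ± 0.32 on the log2 scale (adjusted p = 2.36e-18) was the largest rise of any tested member in the knockout against wild type. Every knockout library from day 1 on was above the knockout's day 0 range of 6.34 to 10.6 CPM.

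Receptors of netrin 1 summed at day 10 to 163.0 ± 37.8 TPM in wild type and 18.39 ± 3.03 TPM in the knockout (SD, n = 3 each), with UNC5B leading both. UNC5B (chr10:71212570-71302864, plus strand), a repulsive receptor also found on endothelium, was at 709, 610 and 1022 CPM in wild type and 57.5, 39.8 and 56.9 CPM in the knockout at day 10 (log2 fold change -3.92 ± 0.19, adjusted p = 7.04e-17). The summed endothelial markers at that day were 156 to 220 CPM in wild type and 35.2 to 44.5 CPM in the knockout, and their part in the UNC5B difference was not tested. UNC5B was called higher at day 1 (0.92) and lower from day 3. Its day 0 call (-0.49, adjusted p = 0.0434) was lost on leaving out any of 5 of the 6 day 0 libraries, that is all but knockout replicate 3, with adjusted p from 0.0596 to 0.113.

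UNC5C (chr4:95162504-95549206, minus strand), a related repulsive receptor, was at 77.7, 89.7 and 80.8 CPM in wild type at day 5 and 1.09, 0.432 and 0.664 CPM in the knockout (log2 fold change -6.82 ± 0.30, adjusted p = 3.24e-18). It came on late in the knockout, at 20.5, 16.7 and 24.3 CPM at day 10 against 54.4, 35.5 and 65.6 CPM. The RefSeq promoter (GRCh38.p14, chr4:95548924-95549223, minus strand) is printed as that of a member lower at all 5 later days.
UNC5C: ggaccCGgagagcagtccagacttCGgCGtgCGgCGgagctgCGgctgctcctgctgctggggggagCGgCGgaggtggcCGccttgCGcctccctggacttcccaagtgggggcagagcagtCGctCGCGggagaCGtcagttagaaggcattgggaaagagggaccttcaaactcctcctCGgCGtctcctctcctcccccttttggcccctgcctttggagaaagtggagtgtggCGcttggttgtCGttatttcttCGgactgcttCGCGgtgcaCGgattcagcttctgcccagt

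DCC (chr18:52340172-53535903, plus strand), the attractive netrin receptor, peaked in wild type at day 3 at 31.9, 30.4 and 20.0 CPM, against 0.706, 0.843 and 0.505 CPM in the knockout (log2 fold change -5.29 ± 0.33, adjusted p = 1.44e-14). At day 10 its knockout libraries held 4.09, 3.11 and 3.15 CPM and wild type 1.03, 0.809 and 0.671 CPM (2.02 ± 0.33, adjusted p = 3.28e-06). The day 2 call (-1.31, adjusted p = 0.018), at no more than 1.17 CPM, was lost without wild-type day 2 replicate 1 (0.138) or knockout day 2 replicate 1 (0.0568) or 3 (0.0787). Both the day 3 and the day 10 values kept the groups apart, in opposite orders.

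**Figure D4:**
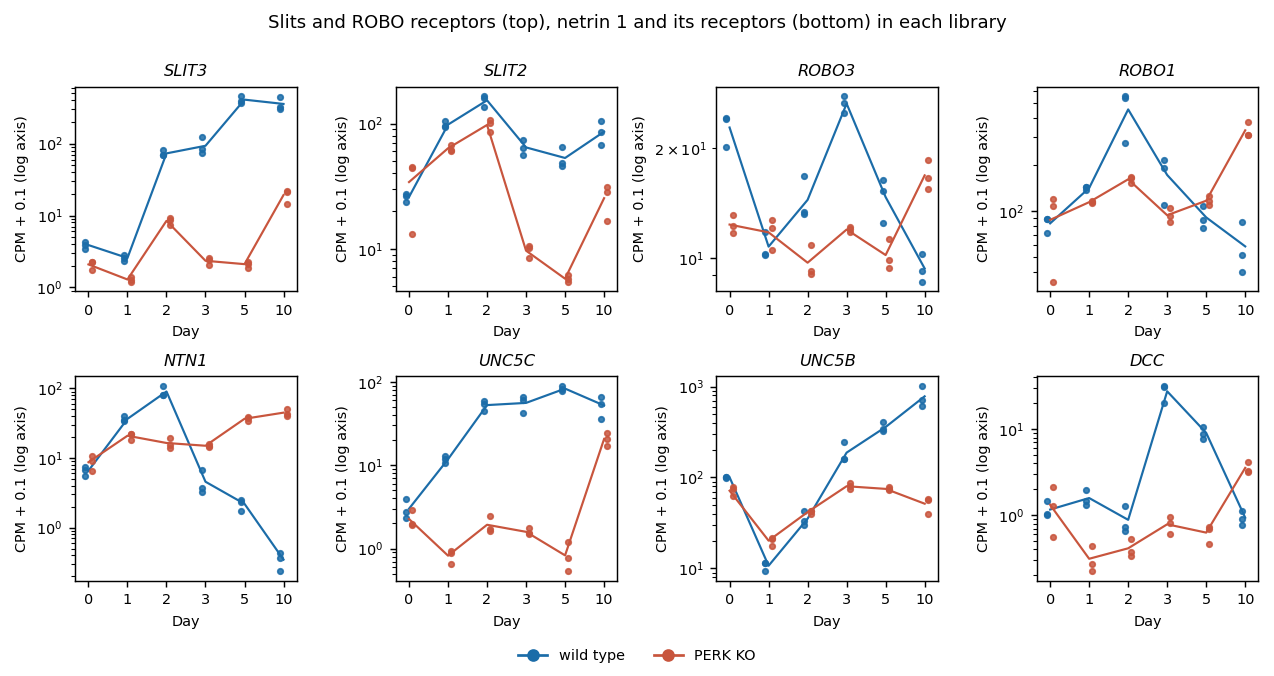
CPM plus 0.1 on a log axis against day for 4 slit and ROBO genes (top) and netrin 1 with 3 receptors (bottom), with 1 point per library and lines through the means of 3 libraries. SLIT3 is 371 to 457 CPM in wild type and 1.78 to 2.20 CPM in the knockout at day 5, and the NTN1 lines cross between days 2 and 3.

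**Figure D5:**
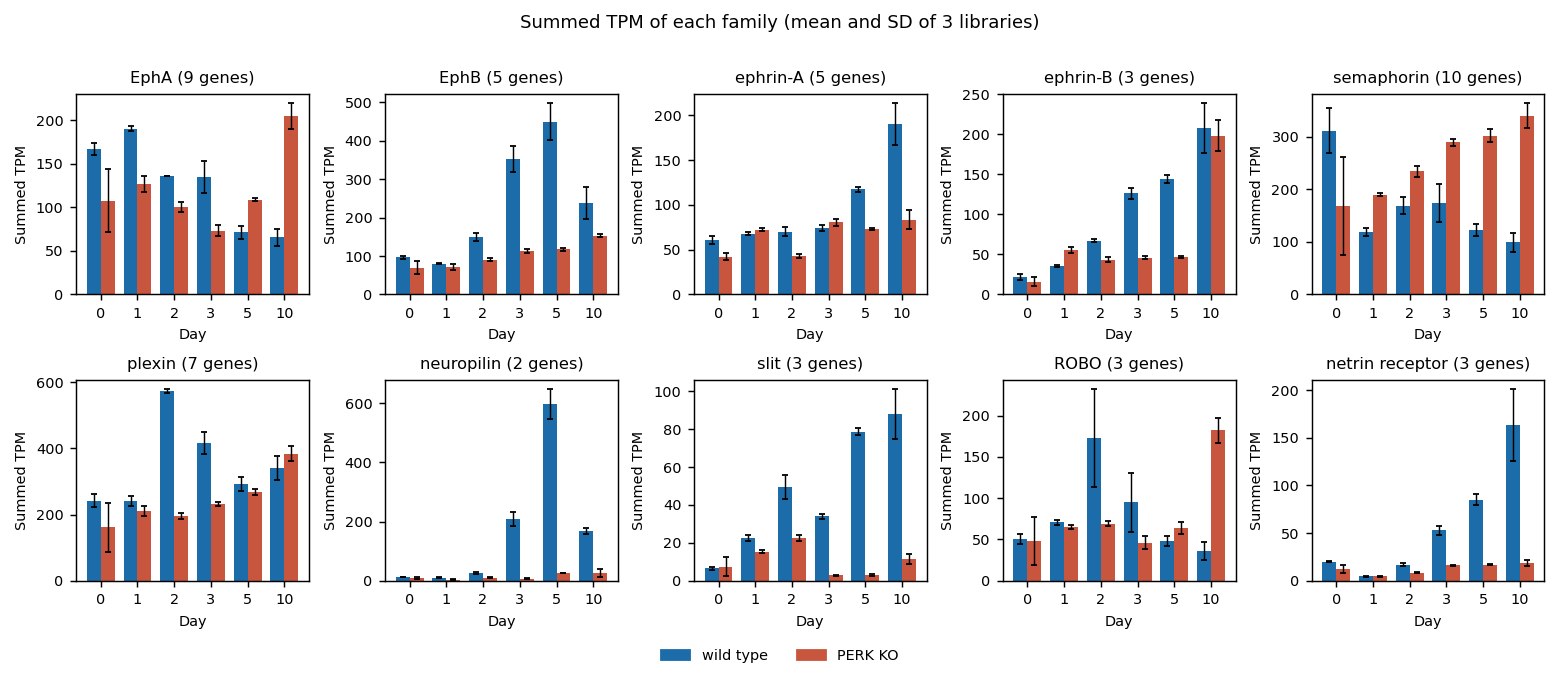
Summed TPM of each family (bars, mean of 3 libraries, with SD) by day for wild type and the knockout, on a linear axis from 0. Neuropilins reach 596.5 TPM in wild type at day 5 against 26.12 TPM in the knockout, and the EphA and ROBO bars of the knockout are the taller at day 10.

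Within wild type the guidance genes reached their highest levels on different days. Against day 0, 16 members were higher and 15 lower at day 1, where 44.6% of all genes were called (20.9% higher, 23.7% lower). Day 2 gave 22 higher and 12 lower (50.5% of all genes, 25.4% higher and 25.1% lower), and day 3 gave 28 and 12 (56.8%, 29.3% and 27.5%). The day 5 counts were 29 and 11 (61.9%, 31.4% and 30.5%) and those of day 10 were 33 and 13 (69.2%, 34.9% and 34.3%). By mean CPM, 7 members were highest at day 0, and from day 1 to day 10 the numbers were 2, 10, 8, 8 and 16. Of all tested genes, 20.4% were highest at day 0 and 20.8%, 10.7%, 9.51%, 11.6% and 27% at the 5 later days. The day 2 group held PLXNA2, PLXND1, SLIT2, ROBO1 and NTN1, the day 3 group EPHA4, DCC and SEMA6D, and the day 5 group NRP1, NRP2, SLIT3, EPHB2 and UNC5C. All of these contrasts share the 3 day 0 libraries.

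In the knockout 28 of 51 members were highest at day 10, and 16 in wild type. Over all tested genes these shares were 30.1% and 27%, and the difference in peak days was not tested. Against its own day 0, 16 members were higher and 15 lower at day 1 (43.1% of all genes called, 18% higher and 25.1% lower), and 18 and 11 at day 2 (41.4%, 17.5% and 23.8%). With only the libraries compared in the fit, 20 members were called at day 1 and 17 at day 2, in place of 31 and 29, and 4252 and 4348 genes in place of 8517 and 8180. Day 3 gave 18 and 8 (40.3%, 18.5% and 21.8%), day 5 gave 22 and 8 (48.8%, 21.5% and 27.3%), and day 10 gave 32 and 5 (61.8%, 29.9% and 31.9%). With only the libraries compared, 18 members were called at day 3 and 25 at day 5, in place of 26 and 30. The knockout day 0 libraries, which include replicate 2 that stood apart, ranged from 329.1 to 811.1 TPM summed over all 51 members. Among the genes highest at day 10 in the knockout were EPHA4, EPHB2, EPHB3, PLXNA2, NRP1, SLIT3, ROBO1, NTN1, DCC and UNC5C. The leading Eph receptor by TPM passed in wild type from EPHA1 to EPHB4 at day 2, EPHB2 at days 3 and 5 and EPHB3 at day 10. In the knockout it passed from EPHA1 to EPHB4 at days 3 and 5 and to EPHA4 at day 10.

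The change from day 0 was then compared between the genotypes with an interaction term. It was called for 23 members at day 1, where it was called for 23.1% of all genes. Of those 23, 11 were positive (10.2% of all genes), meaning a larger rise or smaller fall in the knockout, and 12 were negative (12.9%). The day 1 count was 15 with an offset for effective length. The following days gave 32 (35.7%), 36 (38.9%), 34 (50.1%) and 39 (55.7%). With only the libraries compared in the fit, the day 2 count was 24. For day 3, 12 of the 36 interactions were positive (18% of all genes) and 24 were negative (20.9%). Plexin and neuropilin genes gave 5 negative interactions of 9 at day 3, and the other 4 were not called. Semaphorins gave 6 positive (26.3% of all genes) and 1 negative (29.4%) of 10 at day 10, with a median interaction of 1.96 against -0.07 over all genes.

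Other genes of the same pathways were examined as a list. Of 28 further ligands and receptors, 9 were higher and 14 lower in the knockout at day 3, and 8 were higher and 16 lower at day 10. Over all genes 21.9% were higher and 23.2% lower at day 3, and 33.3% and 34% at day 10. At day 3 NTN4, a netrin of basement membranes, was lower (log2 fold change -5.54 ± 0.34, adjusted p = 8.55e-15), and SEMA4A, a transmembrane semaphorin, was higher by 3.17 ± 0.19 (adjusted p = 1.19e-14). DSCAM and DSCAML1, adhesion molecules of which the first also binds netrin 1, were lower at day 3, with log2 fold changes of -3.94 ± 0.32 and -6.30 ± 0.43. At day 10 RGMA, a repulsive ligand of neogenin, was higher by 5.37 ± 0.21 (adjusted p = 4.39e-19). UNC5A, another netrin receptor, DRAXIN, a secreted repellent that binds DCC, and SLITRK5, a neuronal adhesion protein, were higher at day 10 by 4.30, 3.13 and 2.99.

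Intracellular and co-receptor partners leaned to neither side at day 3, with 15 of 50 higher and 14 lower and a median log2 fold change of 0.06. At day 10, 19 were higher and 16 lower. The shares over all genes were 21.9% higher and 23.2% lower at day 3, and 33.3% and 34% at day 10. MICAL2, an actin-oxidising enzyme of a family that acts downstream of plexins, was lower, with log2 fold changes of -4.85 ± 0.29 at day 3 and -5.60 ± 0.28 at day 10 (adjusted p = 3.96e-15 and 1.17e-16). NGEF, the ephexin exchange factor that EphA receptors use, was lower at day 3 (-3.84 ± 0.22). GRB7, an adaptor protein, and DPYSL3, a collapsin response mediator, were higher at day 3 by 2.82 ± 0.21 and 1.74 ± 0.14. At day 10 DPYSL5, a further collapsin response mediator of neurons, was higher by 4.97 ± 0.21 (adjusted p = 2.86e-18) and MICAL1 by 2.22 ± 0.13. L1CAM, an adhesion partner of neuropilin-1, was lower (log2 fold change -3.05 ± 0.23) at day 10.

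The members lie on 17 chromosomes, and 28 of the 51 genes span more than 100000 bp. RefSeq promoter windows of 300 bases were found for 44 members (65 windows). Their median GC content was 66.7%, against 58.7% over all 35116 windows, and the median number of CG dinucleotides was 24 against 14. The promoters printed above differ in this respect: SEMA4D holds 6 CG dinucleotides and PLXNA2 29, with EPHA1 at 21 and SLIT3 and UNC5C at 22 each. The SEMA4D window lies inside the GENCODE gene, whose upstream end is at chr9:89498130, and other starts of that gene were not examined. The windows were searched on both strands for 6 motifs, and matches of different motifs may overlap. The GC box GGGGCGGGG was in 22 member windows and in 15.7% of all windows, and the E-box CANNTG in 41 and 68.7%. The GATA motif AGATAA was in 6 member windows (10.3% of all), the TCF/LEF motif CTTTGAT in 2 (2.62%), the T-box motif GGTGTGA in 1 (3.45%) and the ATF4 composite motif TGATGNAA in 1 (3.62%). Of the printed windows, that of EPHA1 held 2 GC boxes and 1 E-box, those of SEMA4D and UNC5C 1 E-box each, and those of PLXNA2 and SLIT3 held none of the 6 motifs in these letters.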

How the data were processed

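RNA was sequenced from 36 libraries in 12 groups, and the unit of the main analysis is the deposited expected count per gene from RSEM. Per the submitters' processing notes, CASAVA, FastQC, STAR and RSEM were used with GRCh38 (hg38). Tool versions and the strand setting: not given in the sources used here. The deposited files also hold TPM and FPKM values, both made by the authors. TPM was used here for levels between genes, and FPKM was not used. The deposited matrix equals the expected counts of the 36 sample files.

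Expected counts were rounded, filtered with filterByExpr by group, scaled by TMM and fitted over all 12 groups with edgeR 4.0.16 (R 4.3.3), which left 24 residual degrees of freedom and a common dispersion of 0.0349. Quasi-likelihood F tests were adjusted by Benjamini-Hochberg over 19772 genes within each contrast. The SE is approximate and was taken from the log2 fold change and F. The day 3 knockout against wild-type test was also run on counts simulated from the fitted model. That simulation held no library that stands apart, so it does not cover such libraries. Members and lists were chosen with earlier results of these data known. Values of every library are given for up to 4 members per family with the smallest adjusted p in any knockout against wild-type contrast and a group mean of at least 5 CPM, at the day of that p and others where the course changes. Gene positions are from GENCODE 29 and promoters from RefSeq. Same-numbered replicates are not stated to be paired, so no block was used. DESeq2 1.42.0, another scaling, filters, libraries in the fit, a length offset and leaving out each library were tried as alternatives. Leaving out the libraries that stand apart was chosen after seeing the data.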

Additional observations from a re-analysis of the deposited data

Results flagged for a closer look

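The change from day 0 differed between the genotypes, by the interaction test of edgeR, for 23 members at day 1 (15 with an offset for effective length). From day 2 to day 10 the numbers were 32 (24 with only the libraries compared in the fit), 36, 34 and 39. Over all genes the interaction was called for 23.1% at day 1, and for 35.7%, 38.9%, 50.1% and 55.7% at the later days. For the members below, the change from day 0 was called in both genotypes with opposite signs. The share of all genes with such opposite signs was not computed. The value given is the interaction on the log2 scale, knockout change minus wild-type change, and every one was called (adjusted p from 4.64e-15 to 0.0107). All of these comparisons share the day 0 libraries of their genotype. In the knockout these include replicate 2, which stood apart. The refits that left out 1 library at a time included it, but the opposite signs were not tallied in them.

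Netrin 1 and its receptors gave several of them. NTN1 fell in wild type and rose in the knockout, with interactions of 1.32 at day 3, 3.69 at day 5 and 7.10 at day 10. UNC5C did the reverse, at -3.57 at day 1 and -6.41 at day 5. DCC (-4.33 at day 5) and UNC5B (-3.43 at day 10) also rose in wild type and fell in the knockout.

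Semaphorins and their receptors came next. SEMA6A fell in wild type and rose in the knockout, at 3.45 at day 3 and 2.64 at day 5. Its knockout day 0 mean includes the low value of replicate 2. SEMA3F gave -1.96 at day 2 and -1.49 at day 3, and then 2.38 at day 10, so its sign turned. SEMA3C fell at day 2 in wild type, to a low mean of 0.1067 TPM, and rose in the knockout (4.91). NRP1 (-4.75 at day 1), PLXND1 (-2.10 at day 2 and -1.90 at day 3) and PLXNA4 (-5.83 at day 10) rose in wild type and fell in the knockout, and PLXNB1 did the opposite (1.63 at day 10). The NRP1 mean in the knockout at day 1 was low, at 0.15 TPM.

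Slit, ROBO, Eph and ephrin genes made up the rest. SLIT2 rose in wild type and fell in the knockout, at -3.16 at day 3 and -3.63 at day 5. ROBO2 (1.40 at day 1) and ROBO3 (1.75 at day 10) moved the other way. EFNA5 fell in wild type and rose in the knockout, at 1.51 at day 3, 3.88 at day 5 and 2.43 at day 10. EPHA10 did likewise at day 3 (3.47), whereas EPHA2 (-1.54 at day 2) and EPHA6 (-3.50 at day 5) rose in wild type and fell in the knockout. Levels of EPHA10 and EPHA6 were low, with means of 0.05 TPM for EPHA10 in wild type at day 3 and 0.1967 TPM for EPHA6 in the knockout at day 5.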

How the results depend on the processing

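Counts of members called stayed within 1.5 times the main value in 174 comparisons under the alternatives that leave out no single library, and not in 5. No call of a member changed direction. With only the libraries compared in the fit, day 0 gave 0 members called between the genotypes by edgeR (by unadjusted p under 0.05, 9; by DESeq2 on all libraries, 10), day 1 gave 33, and the knockout gave 20 at day 1 and 17 at day 2 against its day 0. With an offset for effective length the day 1 interaction gave 15. Leaving out 1 library at a time, the day 0 count between the genotypes ranged from 4 to 9. Over all genes, fitting only the libraries compared gave 192 calls at day 0 in place of 4177, of which 34.9% were higher in place of 59.1%, and 7428 at day 1 in place of 3129. For the knockout against day 0 it gave 4252, 4348, 4133 and 6043 at days 1, 2, 3 and 5 in place of 8517, 8180, 7968 and 9645, and for the day 2 interaction 4206 in place of 7063. Without the pair of libraries that stand apart, day 1 gave 4926. The cause was not tested.

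Same-numbered replicates did not pair the samples: 4 of 18 same-number correlations were over 0.1, with a range from -0.294 to 0.619, and 7 libraries matched best their own number. With the replicate number as a block over all libraries, 8, 20, 39, 41, 38 and 43 members were called between the genotypes at days 0, 1, 2, 3, 5 and 10. With a replicate block within the day these counts were 8, 20, 38, 40, 38 and 42.

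For the members printed with every library, 20 calls were lost and 16 gained under the alternatives that leave out no single library. The length offset lost the day 1 calls of EPHB3, SEMA4D, SEMA6A and SLIT3, the day 0 call of SLIT3 and the calls of SLIT2 at day 2, ROBO3 at day 5 and EPHB2 and DCC at day 10. Depth limits EPHA3 and EPHA5, which held 3 reads or fewer over some groups.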
